A study of Mus musculus with 15 samples.

Results

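The 7 tumours compared here were 3 injected with vehicle and 4 injected with BO-112, which is poly I:C (a synthetic mimic of viral RNA) bound to the polymer polyethylenimine, out of 15 tumours in the study. All were MC38 tumours, a colon carcinoma line of mouse origin, grown under the skin of the right flank of C57BL/6 mice and injected once they measured about 5 mm. Vehicle was 100 µL of PBS with 5% DMSO and 5% glucose, and BO-112 was 50 µg in the same volume. The other 8 tumours received DMXAA at 100 µg, a small molecule that activates STING in mice, or DMXAA together with BO-112, and the 4 tumours with DMXAA alone serve below as a second reference. Every tumour was taken 24 h after the injection, and messenger RNA was sequenced from the whole tumour with a stranded protocol. The labels call the samples of a group biological replicates. All 17712 genes of the deposited table were compared. Levels are CPM, the reads of a gene per 1000000 reads of the library after scaling, given per tumour in the order of the replicate numbers or as mean ± SD (vehicle n = 3, BO-112 n = 4, DMXAA n = 4). Changes are log2 fold changes ± SE from limma, BO-112 minus vehicle unless stated, and a gene is said to have risen or fallen only where its Benjamini-Hochberg adjusted p over all genes was at most 0.05.

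Cells recognise double-stranded RNA as a sign of viral replication. Endosomal TLR3 signals through TRIF, and the cytosolic helicases RIG-I and MDA5 signal through MAVS. Both routes activate the transcription factors IRF3, IRF7 and NF-kB, which induce type I interferon, cytokines and their own inhibitors, and secreted interferon then acts on neighbouring cells. In myeloid cells this programme is known to run together with changes in arginine, itaconate and sterol metabolism, in metal handling and in the cell cycle.

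Depth was 13073772 to 15737746 reads per library for the vehicle group and 15677864 to 19070268 for the BO-112 group. Skeletal muscle genes were high in vehicle 2 and BO-112 1, with summed levels of 225 and 660.1 CPM against 16.16 to 41.1 CPM in the other 5 tumours, and also in DMXAA 1 and DMXAA 3 (the 4 muscle-rich libraries below). Adipocyte genes were high in BO-112 2. Vehicle 3 had the highest summed level of resident macrophage genes, 1412 CPM against 684.3 and 708.6 CPM in the other vehicle tumours. Of 18 epithelial markers listed for the colon carcinoma 8 were among the measured genes, and their summed level was 35.23, 36.5 and 91.63 CPM in the vehicle tumours and 12.89 to 17.43 CPM in the BO-112 tumours. In the vehicle tumours most of that sum was cadherin 1, Cdh1, which fell from 25.6, 27.4 and 82.5 CPM in the vehicle tumours to 9.10, 8.35, 11.2 and 4.91 CPM in the BO-112 tumours (-2.26 ± 0.49, adjusted p = 0.00678), and the adhesion gene Epcam went from 1.85, 1.21 and 2.67 to 0.110, 0.30, 0.266 and 0.128 CPM (-3.10 ± 0.84, adjusted p = 0.0251), a call lost without vehicle 1, vehicle 3, BO-112 1, BO-112 4 or the muscle-rich libraries. Of the 8 markers these 2 fell and 1 rose, the keratin gene Krt20 (1.60 ± 0.50, adjusted p = 0.0491), which was below 1 CPM in all 7 tumours and not called without any 1 of the BO-112 tumours. The summed macrophage markers stood at 5617 to 6391 CPM in vehicle tumours and 5581 to 7801 CPM in BO-112 tumours. In RNA from whole tumours fewer cells of a type and less RNA per cell cannot be told apart.

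For genes on which the results turn, the 250 bases before the annotated start are shown, to place the letters of known response elements beside the measured changes. The sequences are RefSeq's for GRCm38.p6, read 5′ to 3′ on the strand of the gene, with the matches in capitals. The first 3 belong to genes that rose: interferon beta (chr4:88522795-88523044, minus strand), the RNase L activator Oas3 (chr5:120777660-120777909, minus strand) and the NF-kB inhibitor Nfkbia (chr12:55492648-55492897, minus strand). Capitals mark the IRF core AANNGAAA, the interferon-stimulated response element (ISRE) GAAANNGAAA, which contains the IRF core, and the NF-kB consensus.
Ifnb1: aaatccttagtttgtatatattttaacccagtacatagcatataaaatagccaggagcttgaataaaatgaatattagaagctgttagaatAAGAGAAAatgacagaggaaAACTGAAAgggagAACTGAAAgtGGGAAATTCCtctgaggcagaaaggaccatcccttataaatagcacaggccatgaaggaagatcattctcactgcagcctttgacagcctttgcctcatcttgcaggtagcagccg
Oas3: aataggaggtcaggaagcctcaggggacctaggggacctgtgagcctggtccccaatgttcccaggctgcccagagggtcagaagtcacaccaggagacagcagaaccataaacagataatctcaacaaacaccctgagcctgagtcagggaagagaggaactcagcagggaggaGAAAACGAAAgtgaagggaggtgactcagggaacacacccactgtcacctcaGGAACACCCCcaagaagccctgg
Nfkbia: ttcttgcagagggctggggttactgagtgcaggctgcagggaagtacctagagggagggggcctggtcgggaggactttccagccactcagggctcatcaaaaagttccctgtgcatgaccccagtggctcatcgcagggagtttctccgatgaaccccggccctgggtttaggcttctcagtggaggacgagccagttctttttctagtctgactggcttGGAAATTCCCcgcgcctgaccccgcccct
In the Ifnb1 promoter 3 IRF cores began 159, 139 and 126 bases before the start, followed by an NF-kB match from 116 to 107 bases before it. Oas3 had an ISRE from 75 to 66 bases before the start and an NF-kB match on the other strand from 23 to 14. Nfkbia had 1 NF-kB match, 29 to 20 bases before the start. The next 3 belong to genes that fell: lanosterol synthase Lss (chr10:76531355-76531604, plus strand), the mitotic kinase Plk1 (chr7:122159185-122159434, plus strand) and cyclin B2, Ccnb2 (chr9:70421555-70421804, minus strand). Capitals mark the CCAAT box, CCAAT or its reverse ATTGG, the element bound by NF-Y.
Lss: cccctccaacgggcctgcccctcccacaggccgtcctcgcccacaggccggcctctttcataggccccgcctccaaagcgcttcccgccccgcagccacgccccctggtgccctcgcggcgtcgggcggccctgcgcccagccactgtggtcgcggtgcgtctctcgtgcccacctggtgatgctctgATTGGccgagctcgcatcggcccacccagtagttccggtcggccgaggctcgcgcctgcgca
Plk1: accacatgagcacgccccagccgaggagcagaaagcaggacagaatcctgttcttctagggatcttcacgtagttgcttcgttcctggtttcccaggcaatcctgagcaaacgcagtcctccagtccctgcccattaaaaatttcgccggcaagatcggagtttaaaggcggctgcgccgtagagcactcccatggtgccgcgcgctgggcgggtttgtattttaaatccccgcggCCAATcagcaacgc
Ccnb2: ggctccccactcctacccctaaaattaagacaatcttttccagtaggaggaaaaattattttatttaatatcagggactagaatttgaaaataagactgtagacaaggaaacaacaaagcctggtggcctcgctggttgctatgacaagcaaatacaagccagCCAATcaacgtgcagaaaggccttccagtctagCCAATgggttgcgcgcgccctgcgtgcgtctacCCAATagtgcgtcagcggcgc
Ccnb2 held 3 CCAAT boxes, beginning 87, 54 and 21 bases before its start, Lss held 1 at 62 and Plk1 held 1 at 14.

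The shares with a match, sought on both strands, are descriptions and mark no binding site. A gene was counted where any of its listed starts had a match, so genes with more starts had more chances. Of the 17712 genes 11860 (67%) had a promoter in the RefSeq table. The ISRE overlaps the IRF core by its letters, and the other motifs may overlap by chance of position. Among the genes that changed at least 2-fold, 538 that rose and 199 that fell had such a promoter. An ISRE was found for 14.3% of those that rose, for 3.02% of those that fell and for 3.36% of all 11860. The corresponding shares were 37%, 20.6% and 19.9% for the IRF core, 13.2%, 9.05% and 5.99% for AP-1 (TGANTCA), and 14.7%, 12.1% and 10.7% for NF-kB. The gamma-activated sequence, GAS (TTCNNNGAA), had 10.8%, 7.04% and 7.16%. The CCAAT box had 37.5%, 35.7% and 39.9%. With calls of any size it was found for 37.2% of the 1019 genes that rose and for 48% of the 542 that fell, so that the order of the groups depended on the fold required. Among all 32851 listed promoters the shares were 2.98% for ISRE, 21.3% for the IRF core, 7.25% for NF-kB, 6.75% for AP-1, 7.02% for GAS and 33.8% for the CCAAT box.

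**Figure D1:**
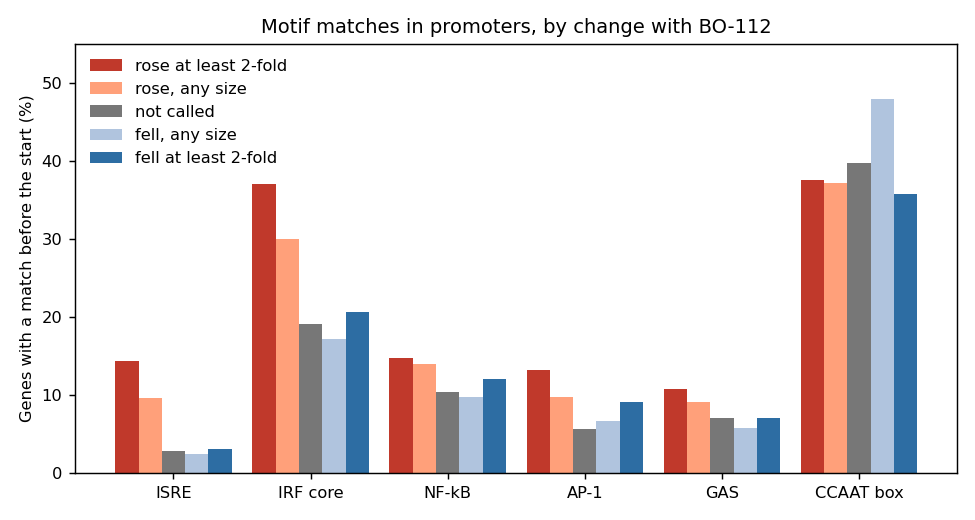
Percent of genes with a promoter in the RefSeq table whose 250 bases before any listed start hold each of 6 motifs, for called genes that rose or fell, each with calls of any size (1019 and 542 genes) and of at least 2-fold (538 and 199), and for genes not called. The ISRE stands at 14.3% for genes that rose at least 2-fold and at 3.02% for those that fell as much, and the CCAAT box is more frequent among genes that fell only with calls of any size (48% against 37.2%).

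BO-112 was followed by 1353 genes higher and 763 lower than vehicle, which is 7.64% and 4.31% of all genes tested. By at least 2-fold, 750 genes (4.23%) were higher and 334 (1.89%) lower. Of all 17712 genes, 3213 (18.1%) had every BO-112 tumour above every vehicle tumour and 2982 (16.8%) had every one below. Statements below that groups did not overlap are read against these shares. Among named genes above 1 CPM the largest rise was that of Slpi, an inhibitor of neutrophil elastase. Slpi stood at 0.142, 0.484 and 0.296 CPM in the vehicle tumours and at 47.3, 28.7, 38.0 and 56.4 CPM in the BO-112 tumours (7.06 ± 0.77, adjusted p = 2.61e-05). Clec4e, a lectin receptor for mycobacterial glycolipid and dead-cell products, went from 4.70, 6.78 and 1.54 CPM to 275, 329, 323 and 299 CPM. In both genes every BO-112 tumour lay far above every vehicle tumour. Groups without overlap were a condition for naming the 15 largest changes in each direction. The separation of the groups in those genes therefore adds no support. The formyl peptide receptors Fpr1 (5.81 ± 0.66) and Fpr2 (5.40 ± 0.51) guide phagocytes to bacterial peptides, and Fpr2 was at 2.06, 3.15 and 0.356 CPM with vehicle and at 54.9, 60.2, 58.5 and 58.2 CPM with BO-112. The secreted serine protease Htra4 rose from 0.981 ± 0.682 to 41.0 ± 3.42 CPM (5.54 ± 0.39, adjusted p = 1.32e-06), with less spread between the BO-112 tumours than Lcn2, a siderophore-binding protein whose level was 11.6, 59.0, 5.99 and 10.1 CPM there. Among the largest falls were the scavenger receptor Cd163, from 2.35, 3.15 and 9.07 to 0.0548, 0.30, 0.0665 and 0.191 CPM (-4.71 ± 0.62), the receptor for vasoactive intestinal peptide Vipr1 (-4.28 ± 0.84), and cyclooxygenase 1, Ptgs1 (-3.67 ± 0.57). Summed neutrophil markers, 17 of 20 measured, were 202.7 to 223.3 CPM in vehicle tumours and 794.5 to 926.1 CPM in BO-112 tumours. Of the 17 markers 7 rose and none fell (median 1.86). Slpi, Lcn2, Hdc and Acod1 are on that marker list. Acod1, whose levels are given below, made up most of the sum in every BO-112 tumour but not in the vehicle tumours. The part of neutrophil number in these and the following rises was not tested.

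The count of called genes depended on single libraries and on the scaling. It was 2116 with all libraries, 1269 without vehicle 3, 1309 without vehicle 1, 3524 without DMXAA 2 and 1090 once the 4 muscle-rich libraries were dropped. With scaling by total count alone 932 genes were higher and 1807 lower, so that the higher share of the called genes moved from 63.9% to 34%, and the median of all genes moved from -0.04 to -0.20 on the log2 scale. The changes below are read against those medians. With the 7 tumours fitted alone 4320 genes were called and with array quality weights 5006, and most list counts were then higher. Of the 148 genes named in the text and called, 17 lost the call once the 4 muscle-rich libraries were dropped. Among them were Vsir, Slc39a8, F3, Slc2a1, Vegfa, Acat2, Lss, Kif23, Egr3, Hmox1, Kmo, Parp1 and Marco. With the 7 tumours fitted alone 3 calls were lost, among them that of Gas6.

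**Figure D2:**
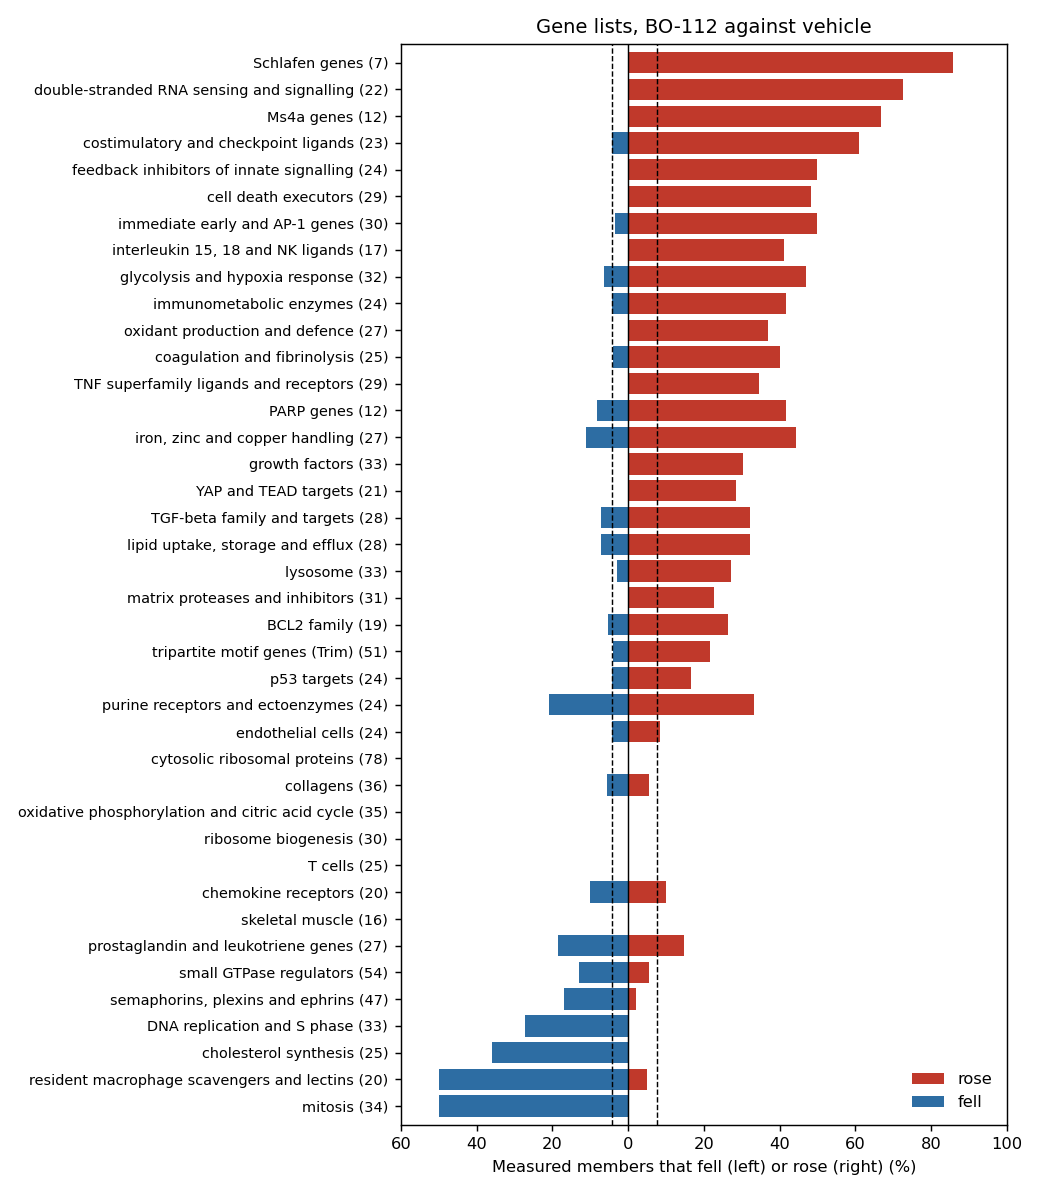
Percent of the measured members that rose (bars to the right) or fell (bars to the left) with BO-112 against vehicle, for the gene lists described below, with the number measured in brackets and dashed lines at the shares of all genes (7.64% and 4.31%). Among the lists plotted, Schlafen, double-stranded RNA sensing and Ms4a genes reach furthest to the right, and mitosis, resident macrophage and cholesterol synthesis genes furthest to the left.

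The machinery that senses double-stranded RNA was itself higher. Of 22 genes of sensing and signalling 16 rose and none fell, with a median change of 1.28 (all genes -0.04), and the count was also 16 once the 4 muscle-rich libraries were dropped. MDA5 (Ifih1), the helicase that binds long double-stranded RNA, was at 81.2, 87.3 and 55.9 CPM in the vehicle tumours and at 249.9, 284, 254 and 241 CPM in the BO-112 tumours (1.81 ± 0.17, adjusted p = 6.37e-06). The groups lay well apart, with vehicle 3 the lowest tumour. RIG-I (Ddx58) rose by 1.36 on the log2 scale from 212 ± 26.3 CPM, the regulator LGP2 (Dhx58) rose by 1.93, and the endosomal receptor Tlr3 went from 36.2, 37.0 and 22.9 to 80.1, 97.5, 87.7 and 79.1 CPM (1.45 ± 0.16). Zbp1, a sensor of Z-form nucleic acid that couples to necroptosis, rose by 1.47 ± 0.19. The RNase L activators Oas1a (2.14 ± 0.16) and Oas3 (2.89 ± 0.33) rose, as did the inducible transcription factor Irf7, from 136, 197 and 89.0 to 965, 1198, 1038 and 1063 CPM. The members that did not pass were mostly the constitutive adaptors: Mavs, on which both helicases signal, was at 63.8 ± 4.00 CPM with vehicle and 50.6 ± 4.44 CPM with BO-112 (-0.34 ± 0.13, adjusted p = 0.117), and Ticam1, which encodes TRIF, was at 0.37 ± 0.18 (adjusted p = 0.208). The product gene Ifnb1 was at 0.142, 0.0605 and 0.119 CPM with vehicle and still at 6.36, 11, 5.25 and 6.19 CPM a day after BO-112 (5.70 ± 0.42, adjusted p = 1.38e-06). The ISRE shown for Oas3 was not typical of the sensing list. It was present for 2 of the 18 sensing and signalling genes with a promoter (11.1%). The share was 3.36% of all genes with one and 14.3% of those that rose at least 2-fold.

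Inhibitors of innate signalling rose alongside it. Of 24 such genes 12 rose and none fell (median 0.80). Nfkbia, which holds NF-kB in the cytosol, went from 123, 119 and 108 CPM to 292, 367, 340.2 and 308 CPM (1.48 ± 0.12, adjusted p = 2.2e-06). The ubiquitin-editing enzyme A20 (Tnfaip3) was at 42.6, 34.5 and 35.4 CPM with vehicle and 142, 197, 156 and 174 CPM with BO-112 (2.15 ± 0.21). Neither gene had overlapping groups, and the tumours within a group differed little. The interleukin 1 receptor antagonist Il1rn (4.41 ± 0.34), the interferon receptor brake Usp18 (2.98 ± 0.18), the mRNA-destabilising protein Zfp36 (1.32 ± 0.17) and Irak3, a decoy kinase of Toll-like receptor signalling (1.96 ± 0.29), were higher too. Of 8 SOCS family genes 1 rose and none fell. It was Socs3, an inhibitor of the interleukin 6 receptor pathway, which went from 83.6, 98.9 and 62.0 to 173, 206, 175 and 155 CPM (1.14 ± 0.21). Socs1, an inhibitor of interferon receptor kinases, was not called, at 29.6, 41.8 and 33.1 CPM with vehicle and 36.5, 48.0, 38.1 and 30.1 CPM with BO-112 (0.13 ± 0.20, adjusted p = 0.748, 95% interval -0.29 to 0.54). An NF-kB match was present for 8 of the 19 genes of this list with a promoter (42.1%), against 10.7% of all genes with one.

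Immediate early genes, whose transcripts are short-lived, were still raised at 24 h in part. Of 30 immediate early and AP-1 genes 15 rose and 1 fell (median 0.67), and 11 rose without the 4 muscle-rich libraries. The phosphatase gene Dusp1, which switches off stress kinases, was at 11.8, 11.4 and 10.6 CPM in the vehicle tumours and at 74.1, 78.5, 59.1 and 113 CPM in the BO-112 tumours (2.81 ± 0.36, adjusted p = 0.000118). BO-112 4 was the highest and all 4 were above every vehicle tumour. The transcription factors Atf3 (2.02 ± 0.27), Csrnp1 (2.00 ± 0.21), Klf6 (0.98 ± 0.12) and Fos (1.94 ± 0.41) rose. Jun was at -0.12 and was not called, and Egr3 fell by 1.18 from 4.91 ± 1.08 CPM, a call lost without vehicle 1 or vehicle 2.

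Enzymes that macrophages use to make antimicrobial metabolites were higher. Of 24 immunometabolic enzymes 10 rose and 1, Kmo, fell (median 0.64), the latter not called without any 1 of the BO-112 tumours, vehicle 1, vehicle 3 or DMXAA 3. Acod1, which makes itaconate from a citric acid cycle intermediate, was at 29.1, 44.7 and 9.13 CPM with vehicle and at 555, 556, 523 and 420.0 CPM with BO-112 (4.48 ± 0.46, adjusted p = 1.58e-05). Inducible nitric oxide synthase, Nos2, was at 71.9, 72.2 and 15.5 CPM and 605, 724, 568 and 749 CPM (3.93 ± 0.57, adjusted p = 0.000341). For both, vehicle 3 was the lowest tumour and the BO-112 tumours lay close together. Genes for both the substrate and a cofactor of nitric oxide synthase rose: argininosuccinate synthase Ass1, which recycles citrulline to arginine, from 108, 96.0 and 68.6 to 368, 369.6, 358 and 429.7 CPM (2.09 ± 0.22), and Gch1, the first enzyme of the cofactor tetrahydrobiopterin, from 7.83, 8.05 and 8.30 to 29.1, 38.8, 25.3 and 24.2 CPM (1.83 ± 0.19). Arginase 2, Arg2, the mitochondrial form, rose from 0.527 ± 0.246 to 4.61 ± 1.68 CPM (3.08 ± 0.54). Arg1 was not called, at 244, 356 and 601 CPM with vehicle and 418, 318, 522 and 521 CPM with BO-112 (0.22 ± 0.27, adjusted p = 0.663), with overlapping groups. The mitochondrial nucleotide kinase Cmpk2 rose by 3.47 ± 0.26 and histidine decarboxylase, Hdc, which makes histamine, by 3.02 ± 0.58. The first enzyme of tryptophan breakdown was not called: Ido1 was at 1.42, 4.36 and 0.237 CPM with vehicle and 1.32, 2.22, 3.39 and 0.957 CPM with BO-112 (0.58 ± 0.74, adjusted p = 0.69, 95% interval -1.0 to 2.16).

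Prostaglandin and leukotriene genes moved in both directions, with 4 of 27 higher and 5 lower (median -0.34). Inducible cyclooxygenase, Ptgs2, was at 32.0, 42.1 and 24.8 CPM with vehicle and 169.5, 93.8, 113 and 249 CPM with BO-112 (2.17 ± 0.30, adjusted p = 0.000217), highest in BO-112 4. Constitutive cyclooxygenase, Ptgs1, was at 16.4, 16.5 and 34.0 CPM with vehicle and 1.10, 2.70, 2.99 and 0.766 CPM with BO-112 (-3.67 ± 0.57, adjusted p = 0.000579). The groups did not overlap in either gene, and they stood in opposite order. Prostaglandin E synthase, Ptges (0.74 ± 0.12), and the arachidonate-releasing lipase Pla2g4a (0.64 ± 0.10) rose. The synthases of prostaglandin D2 in blood cells, Hpgds (-1.5 ± 0.21), and of thromboxane, Tbxas1 (-1.21 ± 0.20), and the leukotriene B4 receptor Ltb4r1 (-1.56 ± 0.31) fell. Pla2g7, which degrades platelet-activating factor, rose from 73.2 ± 15.8 to 331 ± 66.1 CPM (2.18 ± 0.23).

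**Figure D3:**
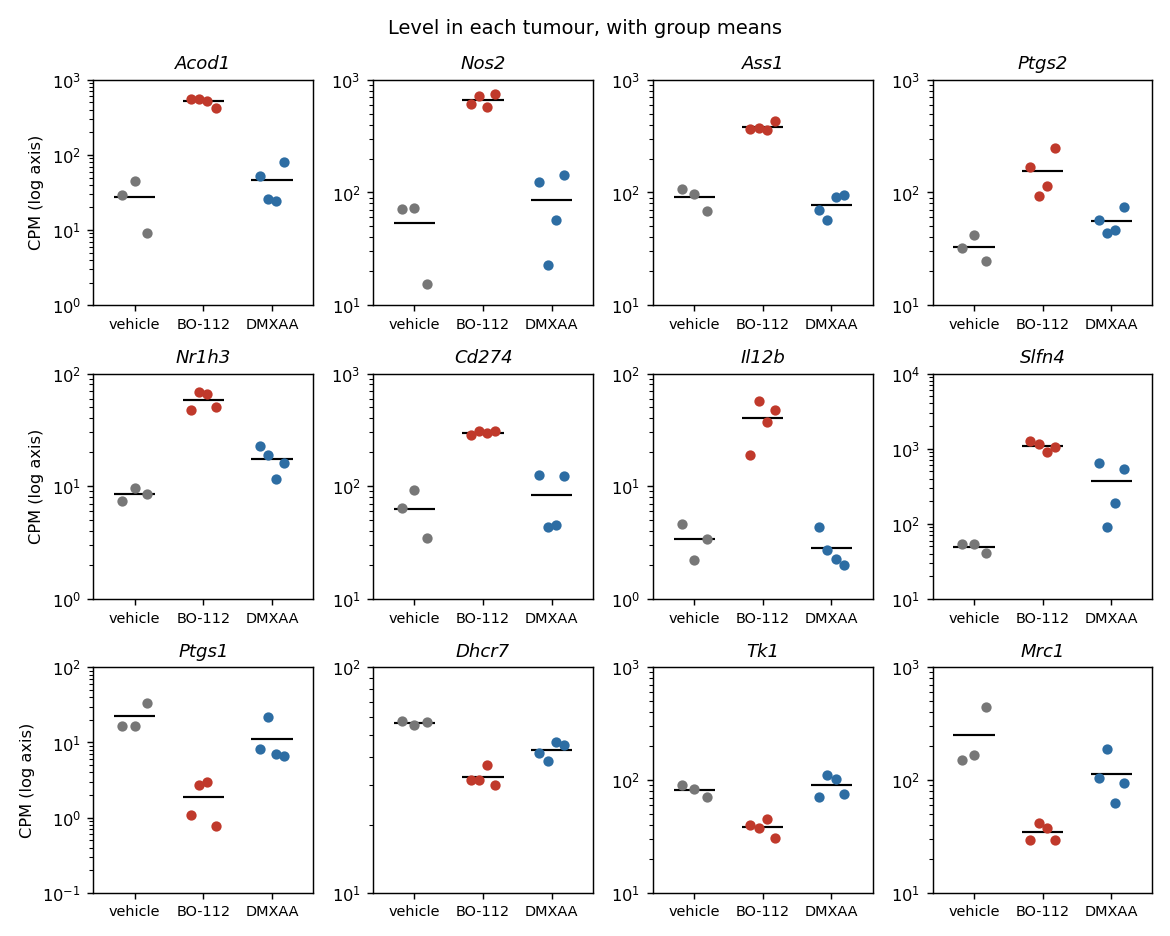
Level of 12 genes in each tumour (CPM, log axis), with vehicle, BO-112 and DMXAA tumours as separate columns of points and a bar at each group mean. In Acod1, Nos2, Ptgs2, Nr1h3, Cd274, Il12b, Slfn4 and Ass1 all 4 BO-112 tumours lie above the 3 vehicle tumours, and in Ptgs1, Dhcr7, Tk1 and Mrc1 all 4 lie below them.

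Ligands that T cells and NK cells read were higher in most cases. Of 23 costimulatory and checkpoint ligands 14 rose and 1 fell (median 1.16). Cd40, the receptor through which T helper cells license antigen-presenting cells, was at 15.5, 22.1 and 15.1 CPM with vehicle and 71.7, 136, 103 and 93.0 CPM with BO-112 (2.50 ± 0.29, adjusted p = 5.13e-05). The checkpoint ligand PD-L1 (Cd274) was at 63.8, 91.8 and 34.8 CPM and 284, 309, 297 and 306 CPM (2.34 ± 0.38, adjusted p = 0.000806). The 4 BO-112 tumours were nearly equal for Cd274, whereas vehicle tumours spread almost over a 3-fold range with vehicle 3 lowest. PD-L2 (Pdcd1lg2) was not called (-0.92 ± 0.43, adjusted p = 0.186). Cd80 (1.31 ± 0.24) and Cd86 (1.16 ± 0.21), the ligands of CD28, and Cd200, an inhibitory ligand for myeloid cells (1.94 ± 0.21), rose. The signalling lymphocyte receptor Slamf7 rose from 24.3 ± 10.6 to 186 ± 7.25 CPM and the T cell costimulator Tnfsf15 from 0.812 ± 0.451 to 12.5 ± 2.41 CPM (4.00 ± 0.47). Vsir, which encodes the inhibitory ligand VISTA, fell by 0.86.

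Interleukin 15 is presented to NK and memory T cells on its own receptor chain, and both genes rose together. Il15 was at 8.33, 11.3 and 5.87 CPM with vehicle and 32.6, 49.5, 38.6 and 37.3 CPM with BO-112 (2.25 ± 0.21, adjusted p = 6.25e-06), and Il15ra at 44.6, 53.8 and 31.4 and 123, 152, 118 and 121 CPM (1.60 ± 0.20). In that list of 17 genes 7 rose and none fell (median 1.07), among them the interleukin 12 subunit Il12b (3.48 ± 0.36), Il27 (2.94 ± 0.43) and Il18bp, the soluble inhibitor of interleukin 18 (1.59 ± 0.29). Of 29 ligands and receptors of the TNF superfamily 10 rose and none fell (median 0.33), including the T cell receptor 4-1BB (Tnfrsf9, 1.75 ± 0.28) with its ligand Tnfsf9 (1.05 ± 0.19) and TNF receptor 2 (Tnfrsf1b, 1.17 ± 0.15). Summed NK cell markers were 142.7 to 238 CPM with vehicle and 320.4 to 379.1 CPM with BO-112. Of the 18 NK cell markers, however, 4 rose, none fell and 14 were not called (median 0.22). Their mean log2 CPM overlapped between the groups, at 2.155 to 2.623 with vehicle and 2.476 to 3.031 with BO-112. None of the 25 T cell markers was called by limma or limma-voom, and 3 had an unadjusted p under 0.05. The part of NK and T cells in these list counts was not tested.

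Genes of cell death rose in part. Of 29 executors and sensors of cell death 14 rose and none fell (median 0.66). Caspase 4 (Casp4), the receptor of cytosolic endotoxin, was at 39.1, 47.6 and 36.8 CPM with vehicle and 108, 116, 105 and 109 CPM with BO-112 (1.42 ± 0.13, adjusted p = 3.95e-06). Ninj1, which ruptures the plasma membrane of dying cells, was at 42.6, 44.7 and 40.1 and 124, 123, 117 and 136 CPM (1.56 ± 0.15), and the pore former of necroptosis Mlkl at 87.4, 103 and 69.3 and 180.3, 189, 183 and 184 CPM (1.11 ± 0.12). The spread within a group was small for all of them, and no groups overlapped. Caspase 1 (Casp1, 1.04 ± 0.15) and gasdermin D (Gsdmd, 0.75 ± 0.11), the pore former that both caspases cut, rose. The initiator caspases Casp8 and Casp9 stood at 0.18 and -0.24 and the necroptosis kinase Ripk3 at 0.07, none of them called. Of 19 BCL2 family genes 5 rose and 1 fell, with the survival gene Mcl1 at 324, 354 and 349.7 CPM with vehicle and 534, 504, 555 and 602 CPM with BO-112 (0.68 ± 0.10). Bcl2a1a (1.5 ± 0.28) and Bcl2a1d (1.59 ± 0.34) rose too, but these near-identical copies may share reads. The number of BCL2 genes higher was 3 without BO-112 2, BO-112 4, vehicle 2, vehicle 3 or the 4 muscle-rich libraries and 9 without DMXAA 2. The 1 that fell, Bmf, a gene of apoptosis, was not called without vehicle 1 or 3 or BO-112 1, 3 or 4.

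Of 24 p53 targets 4 rose and 1 fell (median 0.17), with 8 higher and 3 lower without DMXAA 2. Cdkn1a, the cyclin-dependent kinase inhibitor p21, was at 71.7, 64.9 and 68.6 CPM with vehicle and 183, 198, 168 and 195 CPM with BO-112 (1.44 ± 0.14, adjusted p = 7.88e-06). Mdm2, which degrades p53, rose by 1.23 ± 0.15 and the stress kinase gene Plk2 by 1.00 ± 0.16. Sesn1 fell by 1.11, and Bax, Bbc3, Ccng1 and Zmat3 stood between -0.11 and 0.16 without a call.

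Metal handling genes rose in part. Of 27 genes for iron, zinc and copper 12 rose and 3 fell (median 0.97). Without the 4 muscle-rich libraries 7 rose and none fell. Ferritin heavy chain, Fth1, the iron store of the cell, was at 2080.0, 2346 and 2027 CPM with vehicle and 6494, 5906, 6134 and 7519 CPM with BO-112 (1.59 ± 0.20, adjusted p = 8.99e-05). Ceruloplasmin, Cp, a copper-containing iron oxidase, was at 57.2, 40.9 and 48.8 and 122, 156, 127 and 168 CPM (1.55 ± 0.25). Both rose in every BO-112 tumour relative to every vehicle tumour. The iron exporter gene Slc40a1 (-0.50 ± 0.37, adjusted p = 0.43) and the transferrin receptor Tfrc (0.25 ± 0.24, adjusted p = 0.57) were not called. Transporters of copper and zinc, Slc31a2 (1.30 ± 0.17) and Slc30a1 (1.05 ± 0.18), rose, and the zinc importer Slc39a8 fell by 1.11. The phagosomal metal pump Slc11a1 rose from 52.0, 70.2 and 23.8 to 144, 118, 131 and 108 CPM (1.49 ± 0.32).

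Of 27 genes of oxidant production and defence 10 rose and none fell (median 0.47), and 6 rose without the 4 muscle-rich libraries. Mitochondrial superoxide dismutase, Sod2, was at 66.7, 74.3 and 55.2 CPM with vehicle and 236, 304, 242 and 237 CPM with BO-112 (1.96 ± 0.19, adjusted p = 1.09e-05). The catalytic subunit of the phagocyte oxidase, Cybb, went from 192, 253 and 139 to 487, 507, 608 and 473 CPM (1.45 ± 0.19). The stress regulator NRF2 (Nfe2l2) rose by 0.81 ± 0.11 and the peroxidase Prdx5 by 1.57 ± 0.22. Cytosolic superoxide dismutase, Sod1 (-0.28), and catalase, Cat (-0.16), were not called, and for Sod2 the BO-112 tumours stood clear of the vehicle tumours.

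Genes that start and restrain clotting rose in part, 10 of 25 higher and 1 lower (median 0.72). Without the 4 muscle-rich libraries 5 rose and 1 fell. Plasminogen activator inhibitor 2, Serpinb2, was at 0.925, 0.545 and 0.652 CPM with vehicle and 39.4, 36.0, 14.2 and 106 CPM with BO-112 (5.73 ± 0.83, adjusted p = 0.000334). Tissue factor, F3, which starts the extrinsic cascade, was at 18.9, 12.8 and 17.5 and 53.4, 32.5, 33.7 and 82.8 CPM (1.53 ± 0.29). BO-112 4 was the highest tumour for both, and for Serpinb2 the BO-112 tumours differed among themselves by over 7-fold. On the restraining side the endothelial protein C receptor Procr (1.79 ± 0.26) and the tissue factor pathway inhibitor 2 gene Tfpi2 (2.62 ± 0.39) rose. Urokinase, Plau, rose by 0.75 ± 0.13, and the bridging ligand of dying cells Gas6 fell by 2.02.

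Several growth factors for vessels rose. Of 33 growth factor genes 10 rose and none fell (median 0.24), and 4 rose without the 4 muscle-rich libraries. Placental growth factor, Pgf, was at 3.06, 1.88 and 2.08 CPM with vehicle and 11.5, 7.57, 9.91 and 24.4 CPM with BO-112 (2.38 ± 0.36, adjusted p = 0.000509). The vessel-destabilising angiopoietin Angpt2 was at 10.5, 11.7 and 7.24 and 53.9, 44.0, 37.0 and 63.0 CPM (2.33 ± 0.35). Groups did not overlap for either gene. Of 24 endothelial markers 2 rose and 1 fell: the VEGF receptor Kdr was at 22.6, 24.0 and 16.1 CPM with vehicle and 89.8, 87.1, 79.1 and 86.6 CPM with BO-112 (2.05 ± 0.29, adjusted p = 0.000278), Robo4 rose by 1.05, a call lost without BO-112 1, BO-112 4 or any 1 vehicle tumour, and the lineage factor Sox18 fell by 1.15. Pecam1, present on all endothelium, was at 62.2, 70.5 and 60.3 CPM with vehicle and 69.6, 69.2, 62.6 and 59.5 CPM with BO-112 (0.02 ± 0.18, adjusted p = 0.966, 95% interval -0.36 to 0.40).

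Matrix remodelling genes rose in part, with 7 of 31 proteases and inhibitors higher and none lower (median 0.46), and 4 higher without vehicle 3 or without the 4 muscle-rich libraries. Stromelysin, Mmp3, was at 18.6, 21.1 and 14.2 CPM with vehicle and 42.7, 97.5, 65.6 and 183 CPM with BO-112 (2.24 ± 0.40), and the inhibitor Timp1 at 50.0, 59.9 and 58.9 and 137, 188, 119 and 229.7 CPM (1.54 ± 0.23). All BO-112 tumours were higher in both, with a wider spread for Mmp3. Of 36 collagens 2 rose and 2 fell, each of them a call lost when 1 of several tumours was left out, and the main fibrillar forms were not called. Col1a1 stood at 0.49 ± 0.38 (adjusted p = 0.452) and Col3a1 at 0.18 ± 0.26 (adjusted p = 0.728). Of 21 targets of the mechanosensitive YAP and TEAD factors 6 rose and none fell (median 0.22), and 3 rose without vehicle 3. Among them Ccn2 rose from 8.76, 11.2 and 8.30 to 66.6, 24.3, 31.0 and 100.0 CPM (2.34 ± 0.44). Of 28 genes of the TGF-beta family and its targets 9 rose and 2 fell, and 5 rose without BO-112 1, BO-112 4, vehicle 2 or vehicle 3. With total-count scaling 4 rose and 3 fell, and without the 4 muscle-rich libraries 3 rose and none fell. The BMP antagonist Grem1 was at 51.9, 52.1 and 50.8 CPM with vehicle and 149, 118, 119 and 213 CPM with BO-112 (1.49 ± 0.27).

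Glycolysis and hypoxia genes rose in part. Of 32 glycolysis and hypoxia genes 15 rose and 2 fell (median 0.60), with 10 higher without vehicle 3 or without the 4 muscle-rich libraries. The mitophagy receptor Bnip3 was at 46.2, 39.8 and 33.1 CPM with vehicle and 93.1, 92.6, 85.1 and 152 CPM with BO-112 (1.38 ± 0.19, adjusted p = 0.000171). The lactate exporter Slc16a3 was at 91.0, 75.5 and 69.6 and 164, 175, 137 and 211 CPM (1.12 ± 0.15). In both genes BO-112 4 was the highest tumour and none of the groups overlapped. The glucose transporter Slc2a1 rose by 1.37 ± 0.25, the oxidase Ero1l by 1.29 ± 0.21 and the angiogenic factor Vegfa by 0.81 ± 0.18, while the hypoxia marker Car9 stood at -0.24 without a call and the regulatory enzyme Pfkfb4 fell by 0.91. The list's mean log2 CPM was 6.92, 6.75 and 6.59 in the vehicle tumours and 7.36, 7.22, 7.2 and 7.70 in the BO-112 tumours. None of 35 genes of oxidative phosphorylation and the citric acid cycle was called by limma (median -0.19), and 3 had an unadjusted p under 0.05. Of these 35 genes 32 had a negative fitted change, and in 14 every BO-112 tumour lay below every vehicle tumour. Among all 17712 genes 9604 had a negative fitted change, and 2982 (16.8%) had every BO-112 tumour below every vehicle tumour. The number that fell was 0 by limma-voom, 7 with total-count scaling, 9 with the 7 tumours fitted alone, 7 with array weights, 2 without DMXAA 2 and 1 without DMXAA 3.

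Cholesterol synthesis was lower, with 24 of 25 genes below vehicle in the fitted change, 9 of them called and none called higher (median -0.70). Dhcr7, the last step of the pathway, was at 57.9, 55.3 and 57.4 CPM with vehicle and 31.6, 31.7, 36.8 and 29.9 CPM with BO-112 (-0.81 ± 0.12, adjusted p = 0.000282). Lss, which closes the sterol ring, was at 65.7, 59.4 and 53 and 29.9, 28.6, 37.0 and 26.9 CPM (-0.96 ± 0.20). In both genes the highest BO-112 tumour lay below the lowest vehicle tumour. Acat2, at the start of the pathway, fell by 1.42. The count fell to 4 or 5 without any 1 of the 3 vehicle tumours or BO-112 1, 2 or 4, and to 2 without the 4 muscle-rich libraries, where the median was -0.75. It rose to 14 without DMXAA 2 and to 15 with total-count scaling. The part of the lower Cdh1 and Epcam levels in these falls was not tested. Of the 17 genes of this list with a promoter 16 had a CCAAT box (94.1%), against 39.9% of all genes with one.

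**Figure D4:**
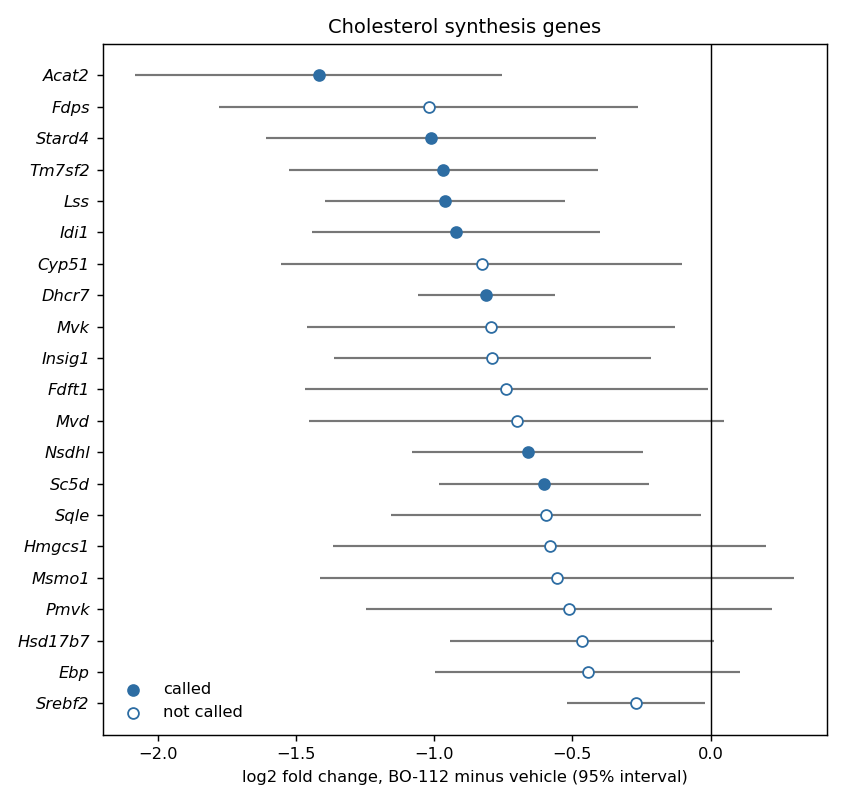
Log2 fold change of BO-112 minus vehicle for 21 of the 25 cholesterol synthesis genes, with 95% intervals from limma, ordered by size, with called genes filled. The 8 called genes among them lie between -1.42 and -0.60, and all 21 lie below 0.

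Genes that take up, store and export lipid rose in part. Of 28 genes of lipid uptake, storage and efflux 9 rose and 2 fell (median 0.54). The sterol-sensing receptor LXR alpha, Nr1h3, was at 7.33, 9.75 and 8.48 CPM with vehicle and 47.3, 67.9, 65.8 and 50.6 CPM with BO-112 (2.75 ± 0.24, adjusted p = 3.64e-06). Its target Abca1, the cholesterol exporter, was at 138, 166 and 119.6 CPM and 209.5, 205, 192 and 234 CPM (0.59 ± 0.27, adjusted p = 0.181), so that the groups did not overlap but the change was not called. The lysosomal sterol carrier Npc2 rose from 389.7 ± 37.9 to 999 ± 115 CPM (1.35 ± 0.20) and the scavenger receptor Msr1 by 1.03 ± 0.16. Scarb1, the receptor for high-density lipoprotein, fell by 0.60 from 131 ± 0.514 CPM. Of 33 lysosome genes 9 rose and 1 fell (median 0.29), led by alpha-galactosidase, Gla (1.83 ± 0.16), and 14 rose without DMXAA 2, 6 without vehicle 1 or with total-count scaling and 4 without the 4 muscle-rich libraries. With vehicle 3 left out 1 lipid gene fell, and without the muscle-rich libraries 5 lipid genes rose.

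Cell cycle genes were lower. All 34 mitosis genes had a negative fitted change and 17 fell (median -0.57). Plk1, which drives mitotic entry, was at 78.4, 77.2 and 59.5 CPM with vehicle and 43.7, 38.8, 44.6 and 32.9 CPM with BO-112 (-0.84 ± 0.17, adjusted p = 0.00371). The cytokinesis motor Kif23 was at 83.8, 85.0 and 72.1 and 50.3, 43.4, 54.6 and 38.9 CPM (-0.79 ± 0.17). Vehicle and BO-112 tumours did not overlap for either gene. Ccnb2 was at 52.5, 56.7 and 54.8 and 31.4, 32.9, 35.2 and 27.3 CPM (-0.79 ± 0.22, adjusted p = 0.0295), a call lost without any 1 vehicle tumour or BO-112 1, 2 or 4. Of 33 genes of DNA replication and S phase 9 fell (median -0.40), with the salvage kinase Tk1 at 90.0, 84.1 and 71.5 CPM with vehicle and 40.2, 37.4, 44.8 and 30.9 CPM with BO-112 (-1.10 ± 0.19, adjusted p = 0.00147). Cyclin E1 (Ccne1) was the 1 replication gene with a positive change (0.37 ± 0.19, adjusted p = 0.226). The mitosis count was 5 to 9 without any 1 vehicle tumour or BO-112 1, 2 or 4, 14 without BO-112 3 and 27 without DMXAA 2, and the replication count was 1 to 5 without any 1 of the 7 tumours. With total-count scaling 24 mitosis and 20 replication genes fell, and with the replicate block 13 and 3. Without the 4 muscle-rich libraries 1 gene of each list was called and the medians were -0.53 and -0.34. A CCAAT box was present for 20 of the 28 mitosis genes with a promoter (71.4%). For the 28 glycolysis and hypoxia genes with a promoter the share was 35.7%, against 39.9% of all genes with one.

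**Figure D5:**
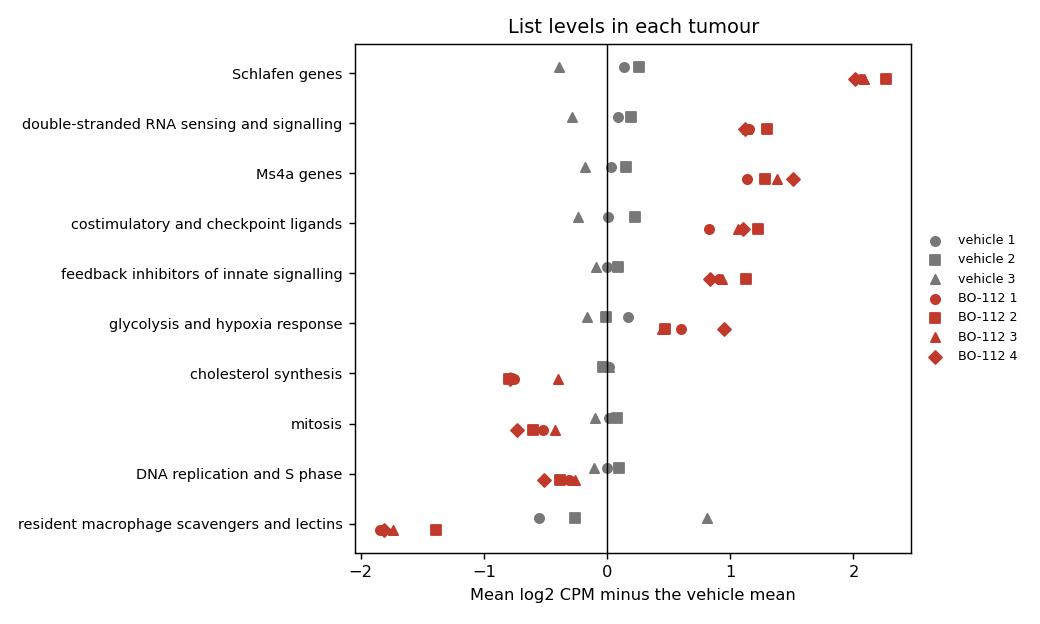
Mean log2 CPM of 10 gene lists in each of the 7 tumours, as the difference from the mean of the 3 vehicle tumours. Lists in the upper rows stand above 0 in all 4 BO-112 tumours, the cholesterol and cell cycle lists stand below 0 in all 4, and vehicle 3 departs from vehicle 1 and 2 in the resident macrophage list.

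Resident macrophage genes fell. Of 20 scavenger receptors and lectins of resident macrophages 10 fell and 1 rose (median -1.88). The 1 that rose was the scavenger receptor Marco, a call lost without vehicle 3. The mannose receptor Mrc1 was at 152, 167 and 441 CPM with vehicle and 29.2, 41.6, 37.8 and 29.2 CPM with BO-112 (-2.71 ± 0.47, adjusted p = 0.00132). The selenium carrier Selenop was at 106, 119 and 195 and 29.7, 58.4, 43.9 and 35.4 CPM (-1.74 ± 0.28). Vehicle 3 was the highest tumour for both, and vehicle 1 and 2 also lay above every BO-112 tumour. Cd209g, a lectin of the DC-SIGN family, was at 0.498, 1.94 and 0.830 CPM with vehicle and had no read in any BO-112 tumour. The pan-macrophage genes Adgre1 (-0.34 ± 0.14, adjusted p = 0.12) and C1qa (0.10 ± 0.31, adjusted p = 0.878) were not called. Of 20 chemokine receptors 2 rose and 2 fell. The 2 that fell are receptors of monocytes and macrophages. Cx3cr1, the fractalkine receptor, was at 156, 141 and 110.2 CPM with vehicle and 29.7, 28.9, 48.0 and 14.6 CPM with BO-112 (-2.27 ± 0.40). Ccr2, which brings monocytes out of the marrow, was at 149.7, 129.6 and 217 and 61.6, 67.1, 60.6 and 43.3 CPM (-1.49 ± 0.33), a call lost without vehicle 3. Monocyte markers as a list did not follow Ccr2: of 16 measured 7 rose and 1, Ccr2, fell (median 0.77). Ccr7, the lymph node homing receptor, rose by 2.11 ± 0.32, and 1 receptor gene rose without vehicle 1 or vehicle 3.

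Purine receptors and ectoenzymes, which read and clear extracellular nucleotides, divided 8 higher to 5 lower of 24. Cd38, which consumes NAD, was at 13.4, 14.1 and 23.1 CPM with vehicle and 68.5, 90.9, 88.8 and 106 CPM with BO-112 (2.42 ± 0.23, adjusted p = 7.86e-06). The UDP-glucose receptor P2ry14 was at 9.96, 11.7 and 7.53 and 32.9, 40.9, 45.0 and 43.2 CPM (2.07 ± 0.21). The ADP receptor P2ry12, by contrast, was at 11.7, 11.1 and 21.3 and 3.78, 4.93, 5.45 and 3.25 CPM (-1.71 ± 0.28). No groups overlapped among these 3. The adenosine receptor Adora2b (1.83 ± 0.26) and the ATP channel P2rx4 (1.02 ± 0.15) rose. The number lower was 3 without any 1 vehicle tumour or without the muscle-rich libraries.

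In 2 families of paralogs, Schlafen and Ms4a, most members rose. Of 7 Schlafen genes, which include growth regulators of leukocytes, 6 rose (median 2.10). Slfn4 was at 53.9, 53.8 and 40.8 CPM with vehicle and 1258, 1143, 900.0 and 1042 CPM with BO-112 (4.46 ± 0.49, adjusted p = 2.94e-05), and Slfn5 at 81.1, 83.9 and 63.3 and 305, 335, 308 and 282 CPM (2.02 ± 0.22). Of 12 Ms4a genes, which encode 4-pass membrane proteins of leukocytes, 8 rose (median 1.31). Ms4a4c was at 53.2, 72.7 and 34.9 CPM with vehicle and 369.9, 404, 400.5 and 409.8 CPM with BO-112 (2.95 ± 0.21, adjusted p = 1.32e-06). In these genes each BO-112 tumour stood above each vehicle tumour. Of 12 PARP genes 5 rose and 1 fell, and the risers Parp9 (1.12 ± 0.14), Parp10, Parp11, Parp12 (1.32 ± 0.14) and Parp14 are ADP-ribosyltransferases distinct from the DNA repair enzyme Parp1, which fell by 0.46, a call lost without any 1 of the 7 tumours. Of 51 Trim genes, mostly ubiquitin ligases, 11 rose and 2 fell (1 without vehicle 1, vehicle 3 or BO-112 1, 3 or 4), led by the Trim30 cluster with Trim30a at 2.22 ± 0.19 and Trim30d at 2.04 ± 0.16. Close paralogs within these families may share reads, and how such reads were counted is not given in the sources used here.

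Most cytoskeletal and guidance genes were not called. Of 54 regulators of small GTPases 3 rose and 7 fell, with 13 lower without DMXAA 2 or with total-count scaling, and 1 higher without vehicle 3, BO-112 1 or the muscle-rich libraries. The exchange factor Arhgef6 was at 33.3, 35.3 and 42.9 CPM with vehicle and 15, 12.4, 18.1 and 10.9 CPM with BO-112 (-1.42 ± 0.19, adjusted p = 0.00014). Of 47 semaphorins, plexins, ephrins and their receptors 1 rose and 8 fell, with 3 to 5 lower without any 1 of the 7 tumours and 2 lower without the 4 muscle-rich libraries. The 1 that rose was Sema4d, a semaphorin of leukocytes, at 89.9, 84.8 and 40.2 CPM with vehicle and 199.8, 205, 204 and 194 CPM with BO-112 (1.57 ± 0.25). The groups did not overlap in either gene. None of 78 cytosolic ribosomal protein genes and none of 30 ribosome biogenesis genes was called, and neither was any of 13 adipocyte or 16 skeletal muscle genes, by limma or by limma-voom. Of these 4 lists only ribosome biogenesis had genes with an unadjusted p under 0.05, 2 of them.

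DMXAA offers a second reference for what BO-112 changed, because it acts through STING and not through an RNA sensor. No group received the polymer alone, so the parts of the RNA mimic and of its polymer cannot be told apart. Against DMXAA 1976 genes were higher with BO-112 and 1807 lower, 11.2% and 10.2% of all genes. These counts depended on single libraries: the sum of 3783 became 1879 without DMXAA 3, 5898 without DMXAA 1, 5743 without DMXAA 4, 2130 to 2292 without BO-112 1, 2 or 4, and 791 without the 4 muscle-rich libraries. Without DMXAA 2 it was 2997. That library stood apart, with 622 genes at 0 reads against 19 to 202 in the other DMXAA tumours and a scaling factor of 0.85 against 0.98 to 1.07. The mean log2 CPM of the 78 cytosolic ribosomal protein genes was 8.38, 10.03, 9.17 and 8.44 in DMXAA 1 to 4, against 8.35 to 8.69 in the vehicle and BO-112 tumours. The part of these differences in the comparison was not tested. Of the 22 double-stranded RNA sensing genes 17 were higher with BO-112 than with DMXAA and 1 lower. The counts were 16 and none without DMXAA 3, and 13 and none without the muscle-rich libraries. Ifnb1 was at 0.286, 0.604, 0.277 and 0.153 CPM in the DMXAA tumours, a difference of 4.42 ± 0.39 (adjusted p = 2.87e-05). Acod1 was at 52.8, 25.5, 24.7 and 79.9 CPM there (3.66 ± 0.43, adjusted p = 0.000116), Il12b at 4.33, 2.72, 2.29 and 1.99 CPM (3.76 ± 0.33) and Ass1 at 70.6, 56.7, 90.7 and 94.5 CPM (2.31 ± 0.21). For these 4 genes every BO-112 tumour exceeded every DMXAA tumour.

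Several genes that rose against vehicle did not differ beyond the threshold from DMXAA. The pattern receptor Ptx3, an acute-phase protein of innate immunity, was at 25.1, 57.9, 12.5 and 44.8 CPM with BO-112 and 41.1, 15.6, 19.3 and 31.8 CPM with DMXAA (0.26 ± 0.48, adjusted p = 0.695), against 0.498, 1.09 and 0.830 CPM with vehicle. Timp1 differed by -0.09 ± 0.21 (adjusted p = 0.78), Lcn2 by -0.17 ± 0.70 (adjusted p = 0.865) and Hmox1, the haem-degrading enzyme, by 0.64 ± 0.37 (adjusted p = 0.204). These tests do not show equal levels. Of the immunometabolic enzymes 9 were higher than with DMXAA and none lower, also without DMXAA 2 or without DMXAA 3. With total-count scaling 8 were higher, and 7 without the muscle-rich libraries. Of the Schlafen genes all 7 were higher, with 4 left without the muscle-rich libraries. Cell cycle genes were lower than with DMXAA. With BO-112, 22 of 34 mitosis genes and 25 of 33 replication genes were lower than with DMXAA, 13 and 13 without DMXAA 3 and 8 and 5 without the muscle-rich libraries. Tk1 was at 70.7, 112, 102 and 75.0 CPM with DMXAA (-1.22 ± 0.18, adjusted p = 0.000563) and Plk1 at 67.7, 76.3, 88.1 and 72.4 CPM (-0.93 ± 0.16). Lss, which fell against vehicle, did not differ beyond the threshold from DMXAA (-0.27 ± 0.19, adjusted p = 0.289). Cybb was at 193, 157, 169 and 166 CPM with DMXAA (1.59 ± 0.18), and the glycolysis and hypoxia list had 14 of 32 higher and 2 lower with BO-112, 5 and none without the muscle-rich libraries.
The mean log2 CPM of the 35 oxidative phosphorylation and citric acid cycle genes was 6.68, 7.56, 7.22 and 6.74 in the DMXAA tumours, against 6.67 to 6.87 in the vehicle tumours and 6.54 to 6.66 in the BO-112 tumours. Against DMXAA 14 of them were lower with BO-112, 8 without DMXAA 2, 1 without DMXAA 3 and none without the 4 muscle-rich libraries.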

How the data were processed

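Stranded mRNA libraries of 15 MC38 tumours were compared, with groups from the sample labels. The submitters' processing notes name STAR, edgeR, limma and mm39. The deposited table holds log2 CPM for 17712 genes with the authors' own scaling. Reads were recovered by taking the lowest value of each library as 0 reads with an assumed offset of 0.5 reads. This gave whole reads for 100% of entries (tolerance 1e-06, largest distance 5.4e-09). A second deposited table of 15 columns has no sample names and was not used. Symbols came from GENCODE M21 (17636 genes matched, 76 did not).

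The log2 values of all 15 libraries were fitted with 4 group means in limma 3.58.1 (R 4.3.3), with trended, robust variance moderation, 95% intervals and Benjamini-Hochberg adjustment over all genes. The scaling factors were 1.05 to 1.08 for vehicle and 0.94 to 0.97 for BO-112. Tested on data simulated with independent normal noise, the fit recovered 48 of 50 genes raised by 2 on the log2 scale and 37 of 50 raised by 1. The shifted genes had a positive mean log2 CPM and changed in BO-112 alone, so these shares need not hold for the tumours. Replicates of a group differed by more than sampling noise, with a chi-square per gene of 9.36 to 20.9. Alternatives were other scalings, a filter of 1 CPM in 4 libraries, limma-voom on the recovered reads, the 7 tumours alone, array weights, a replicate block, each library left out, and the 4 muscle-rich libraries left out.

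The comparison and the gene lists were chosen with earlier results of these data known. Family lists by symbol start and the motif letters were narrowed or widened after the files had been seen. Named genes were the 15 largest changes in each direction among called genes of at least 1 CPM whose groups did not overlap, the 4 smallest adjusted p of each list with the first member in the other direction, and a fixed panel. Chosen after their values were seen were Adgre1, Arg2, Bax, Bbc3, Car9, Casp1, Casp8, Cat, Ccnb2, Ccng1, Cd86, Fos, Gsdmd, Hmox1, Il18bp, Irak3, Jun, Ltb4r1, Mavs, Oas3, P2ry12, Parp14, Pdcd1lg2, Pla2g4a, Ripk3, Slc11a1, Slc2a1, Slc40a1, Socs1, Sod1, Tbxas1, Tfrc, Ticam1 and Zmat3. Promoters were RefSeq's for GRCm38.p6, 250 bases before the start. The values of a few genes are not reported here.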

Additional observations from a re-analysis of the deposited data

Results flagged for a closer look

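Among the 4 BO-112 tumours, 10 values stood apart from the other 3 by Dixon's gap ratio (above its 95% critical value), out of 174 genes and 42 lists checked on the log2 scale. Chance flags about 1 in 20 groups. BO-112 2 was high for Il15ra (152 CPM), Adora2b (12.9 CPM) and Sod2 (304 CPM). BO-112 4 was high for Bnip3 (152 CPM), Krt20 (0.83 CPM) and Gla (113 CPM). BO-112 3 was low for Hdc (9.25 CPM), and BO-112 1 was low for Bcl2a1a (27.0 CPM). Of the lists, cholesterol synthesis was highest in BO-112 3 (mean log2 CPM 4.98), and skeletal muscle was highest in BO-112 1 (4.60).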

How the results depend on the processing

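The number of genes called for BO-112 against vehicle was 2116 as reported, 1090 once the 4 muscle-rich libraries were dropped, 5006 under array quality weights and 4320 with the 7 tumours fitted alone. Leaving out 1 library gave 1269 to 3524. Against DMXAA it was 3783, 791 without the muscle-rich libraries and 1879 to 5898 with 1 library left out, and the fit of the 7 tumours alone gives no value there. Median-ratio scaling, the filter, limma-voom and total-count scaling stayed within 1.5 times of both counts, with 2088, 2063, 2092 and 2739 genes against vehicle. Of the calls as reported, 2043, 1954, 2020 and 1695 were shared with them. Total-count scaling turned the split to 932 higher and 1807 lower. Among the named genes 148 were called, and none of these changed sign under any alternative run; 128 were called under all of them. The cause of the moved counts was not tested. With the replicate number as a block, 1762 genes were called against vehicle and 3828 against DMXAA. Deviations of same-numbered vehicle and BO-112 tumours from their group means had correlations of -0.303, -0.155 and 0.115 over 14888 genes. The largest correlation, 0.388, was that of vehicle 2 with BO-112 1, both muscle-rich. With so few tumours these values cannot show whether the numbers pair samples. Depth limits genes near 1 CPM, such as Krt20. Vehicle has 3 libraries, and the labels do not say whether tumours were processed together.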
